A study of Homo sapiens with 2 samples.

Results

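The miRs described here come from the hairpins miR-379, miR-411, miR-299, miR-380, miR-1197, miR-323, miR-758, miR-329 and miR-323b of the imprinted miR cluster at chromosome region 14q32.31. They were found by name, as every row of the processed table whose name, without arm and copy suffixes, is one of these 9 stems, which gave 18 of the 934 names. Small RNA was sequenced from K562/ADM, a line derived from K562 by exposure to rising concentrations of adriamycin (ADM), an anthracycline drug, and kept in 1000 ng/mL of it, and from untreated parental K562, a human chronic myelogenous leukemia line. The sources do not say whether K562/ADM is a single clone. There was 1 library of each line, so that no replicate error is known, the values compare these libraries rather than the conditions, and no p-value was computed.

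MiRs are cut from hairpins within longer transcripts, first by Drosha in the nucleus and then by Dicer in the cytoplasm, which leaves a duplex of a 5p and a 3p arm. One arm is usually kept by an Argonaute protein and finds its targets mainly through the seed, bases 2 to 8. The 14q32.31 hairpins lie in the DLK1-DIO3 domain, whose noncoding RNAs are expressed from the maternal copy of the chromosome, and in mammals they are known chiefly from brain, placenta and embryonic tissues. Hairpins that share such a transcript can still give different amounts of mature miR, since processing and stability differ between them.

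On GRCh37 the hairpins from MIR379 (chromosome 14, 101488403 to 101488469) to MIR329-2 (101493437 to 101493520) lie on the plus strand within 5.12 kb. These 9 copies, counting MIR329-1 and MIR329-2 apart, all fall in introns of the lncRNA gene MEG8. MIR323B (101522556 to 101522637) is not part of this run. It starts 29.0 kb beyond the end of MIR329-2 and overlaps an exon of the lncRNA gene MEG9, so that its values are kept apart below where they matter.

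The mature sequences are shown because nearly all of their seeds differ, while most of the 3p arms share a stretch further along. The sequences were taken from RefSeq (GRCh38.p14), where 15 of the 18 names had a match, and the 3 names spelled mir did not. The seed is in capitals. The 5p arms read, 5′ to 3′, with the name used in the table in brackets:
miR-379-5p (miR-379): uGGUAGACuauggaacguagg
miR-411-5p (miR-411): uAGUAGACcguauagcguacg
miR-299-5p: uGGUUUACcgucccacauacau
miR-380-5p (miR-380*): uGGUUGACcauagaacaugcgc
miR-323a-5p (miR-323-5p): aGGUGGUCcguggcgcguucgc
miR-323b-5p: aGGUUGUCcguggugaguucgca
The 3p arms read:
miR-379-3p (miR-379*): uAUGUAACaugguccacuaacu
miR-411-3p (miR-411*): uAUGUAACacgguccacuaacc
miR-299-3p: uAUGUGGGaugguaaaccgcuu
miR-380-3p (miR-380): uAUGUAAUaugguccacaucuu
miR-1197: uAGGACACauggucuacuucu
miR-323a-3p (miR-323-3p): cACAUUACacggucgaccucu
miR-758-3p (miR-758): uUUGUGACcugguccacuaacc
miR-329-3p (miR-329): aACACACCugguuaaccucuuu
miR-323b-3p: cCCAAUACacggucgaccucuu

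The 15 sequences are 21 to 23 nt long, hold 31.8% to 72.7% G and C and carry 14 different seeds. Only miR-379* and miR-411* share a seed, AUGUAAC, and over their whole length they differ by U10C and U22C, counted from the 5′ end with the base of miR-379* first. MiR-323-3p and miR-323b-3p differ by A2C and U5A over 21 bases, both within the seed. MiR-329 can come from either of its hairpins, which give the same mature sequence. Mapping used the default settings of miRanalyzer, whose number of mismatches the sources do not spell out, so that reads of miR-379* and miR-411*, or of miR-323-3p and miR-323b-3p, could have been counted under the other name.

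Read in the sense of the RNA, the letters GGUCNAC were found in 7 of the 9 3p arms, in each of them from base 11, and in 0 of the 8 5p arms that RefSeq lists for these hairpins. Among all human mature sequences of the same table outside these hairpins, 4 of 2334, or 0.171%, hold these letters. Of these 4, 2 are arms of the hairpin miR-412 further along the cluster, and 1 is miR-493-3p from the 14q32.2 group upstream. The match is shown in capitals in 3 of the 7, 1 for each base at the variable position:
miR-379-3p: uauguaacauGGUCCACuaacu
miR-1197: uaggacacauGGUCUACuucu
miR-323a-3p: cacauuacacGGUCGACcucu
The stretch describes how alike these arms are, and nothing about its function follows from it. The letters were set by hand and not found by a search, so that the shares are a description and no test. The looser letters GGUNNAC were found in 9 of the 9 3p arms and 4 of the 8 5p arms. They were also in 9 of 56 sequences from the rest of the cluster, and in 1.33% of all sequences outside these hairpins.

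The table gave 6895193 reads in K562/ADM and 7677738 in K562, recovered as whole numbers from the deposited values. MiR-378 held 53.1% and 50.6% of them. The 6 miRs listed as typical of blood cells had 554667 reads in K562/ADM and 415541 in K562, and the 7 listed for liver, muscle, neurons and epithelium had 93 and 74 reads in all, at most 63 for any of them in either library, with 1 of the 7 at 0 in K562/ADM and 2 at 0 in K562. In both lines the markers of blood cells therefore stood far above those of other tissues. Reads were scaled by size factors (medians of the ratios to a geometric mean library) before ratios were taken, and each ratio has an exact 95% interval (Clopper-Pearson) that covers counting error only.

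Each of the 18 names was lower in K562/ADM after scaling, against 473 of all 934 names. Together they had 388 reads in K562/ADM and 31294 in K562, which is 65.9-fold lower in K562/ADM (95% interval 59.6 to 73.0). Their share of all reads was 0.00563% in K562/ADM (0.00508 to 0.00622) and 0.408% in K562 (0.403 to 0.412). A name was called lower when it was at least 2-fold lower with an interval that excluded 1, and this held for 16 of the 18 names, against 15.6% of all 934 names. The other 2, mir-1197* and miR-323b-5p, had 0 reads in K562/ADM and 1 and 3 reads in K562, at or under a floor of 3 reads, so that no fold is given. By fold alone 18 of 18 passed, against 29.4% of all names, but these 2 passed only because 0 reads in K562/ADM give a ratio of 0, and at the floor they would not be lower. Of the members 15 had a whole interval beyond 2-fold, against 11.1% of all names. None of the 18 was called higher by the same limits, against 104 of all 934 names. Without the names of miR-323b the summed reads were 66.3-fold lower (59.9 to 73.5). Fewer cells making these miRs and less of them in each cell cannot be told apart in such bulk libraries.

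**Figure D1:**
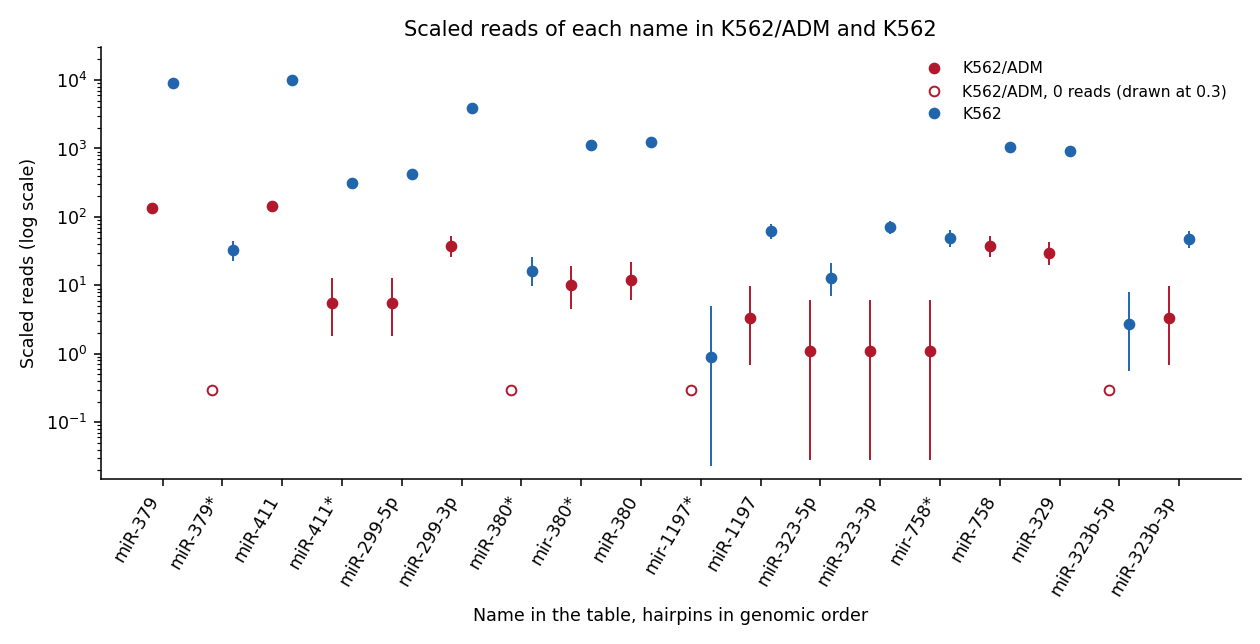
Scaled reads (y axis, log scale) of each of the 18 names (x axis, in genomic order) in K562/ADM (red) and K562 (blue). Points are the 2 libraries, bars are exact 95% counting intervals and open circles are names with 0 reads, drawn at 0.3. Each red point lies below its blue point, and the names span 1 to 10915 reads in K562.

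MiR-411 and miR-379 gave most of these reads. MiR-411 had 131 reads in K562/ADM, where it ranked 221st by abundance, and 10915 in K562, where it ranked 44th, and was 68.0-fold lower (57.3 to 81.5). MiR-379, which has been shown in human liver cells to act on the drug transporter ABCC2, had 123 reads in K562/ADM (rank 226) and 10109 in K562 (rank 49), 67.1-fold lower (56.2 to 80.8). The order of the pair was clear in K562, where the counting intervals were 10711 to 11122 and 9913 to 10308 reads, while in K562/ADM they overlapped (110 to 155 and 102 to 147 reads). The other arms were rare. MiR-411* had 5 reads in K562/ADM and 348 in K562, 56.8-fold lower (24.1 to 176). MiR-379* had 0 reads in K562/ADM and 36 in K562, which is at least 9.80-fold lower against the floor of 3 reads. That floor leaves out counting error, and the exact 95% interval of the ratio begins at 7.57-fold.

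The next hairpins, miR-299 and miR-380, had the highest folds, with intervals that overlapped those of miR-379 and miR-411. MiR-299-3p had 34 reads in K562/ADM and 4321 in K562, 104-fold lower (74.1 to 150). MiR-299-5p had 5 reads in K562/ADM and 468 in K562, 76.4-fold lower (32.5 to 236). MiR-380 had 11 reads in K562/ADM and 1389 in K562, 103-fold lower (57.4 to 207). The table holds 2 further names for this hairpin. The name mir-380* had 9 reads in K562/ADM and 1237 in K562, 112-fold lower (58.9 to 246). MiR-380*, the 5p arm, which is known to repress p53 in human neuroblastoma, had 0 reads in K562/ADM and 18 in K562, at least 4.90-fold lower against the floor, with an exact 95% interval that begins at 3.59-fold. With 2 arms and 3 names, what mir-380* counts is not stated in the sources. Its ratio lay within the interval of miR-380, but so did those of miR-379 and miR-411, so that this likeness cannot tell.

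The hairpins that follow were lower by smaller folds where the reads allow a fold to be set. MiR-758, known to repress the cholesterol transporter ABCA1 in human and mouse cells, had 34 reads in K562/ADM and 1163 in K562, 27.9-fold lower (19.9 to 40.5). MiR-329, one of the miRs of this cluster needed for dendrite growth in cultured rat neurons, had 27 reads in K562/ADM and 1020 in K562, 30.8-fold lower (21.1 to 47.0). Thus miR-758 and miR-299-3p had the same 34 reads in K562/ADM, but 1163 and 4321 reads in K562. The name mir-758* had 1 read in K562/ADM and 54 in K562, 44.1-fold lower (7.59 to 1774). MiR-1197 had 3 reads in K562/ADM and 68 in K562, 18.5-fold lower (6.07 to 92.0). MiR-323-3p had 1 read in K562/ADM and 78 in K562, 63.7-fold lower (11.1 to 2548). These 3 intervals are wide and overlap that of each other member. MiR-323-5p had 1 read in K562/ADM and 14 in K562, 11.4-fold lower (1.74 to 483), and is the 1 called name whose interval reached below 2-fold. MiR-323b-3p, from the separate hairpin, had 3 reads in K562/ADM and 52 in K562, 14.2-fold lower (4.58 to 70.9).

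**Figure D2:**
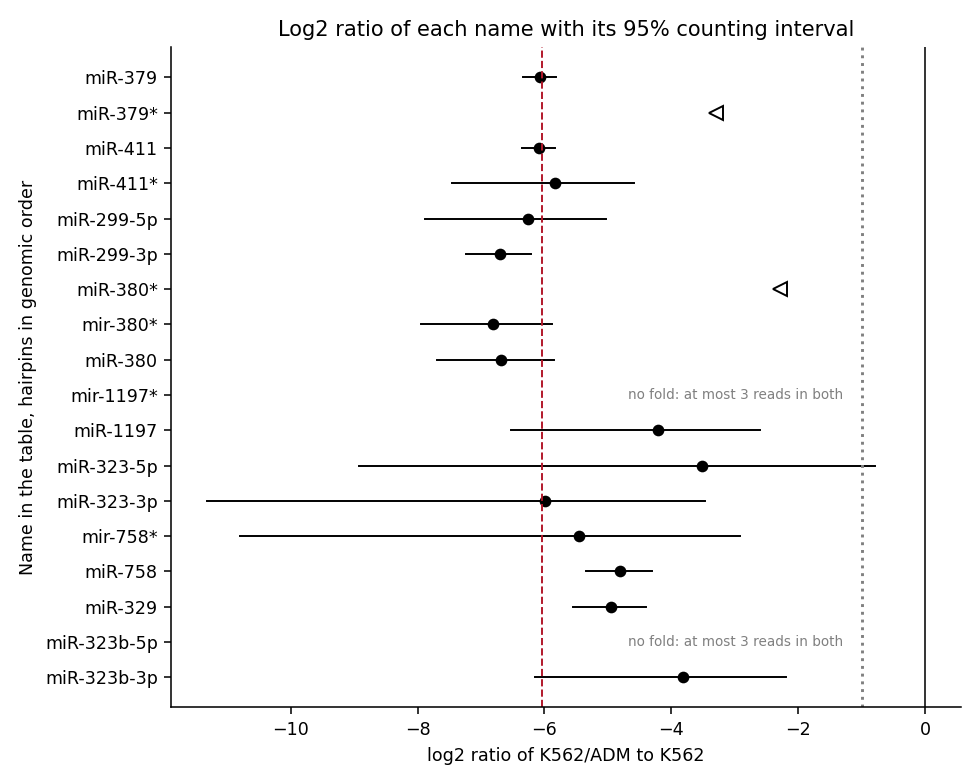
Log2 ratio of K562/ADM to K562 (x axis) for each name (y axis, in genomic order). Points are ratios with exact 95% counting intervals, open triangles mark names without reads in K562/ADM, placed at the floor of 3 reads, the red dashed line is the ratio of the summed reads (-6.04), the dotted line a 2-fold fall and the solid line equality. The intervals of miR-758 and miR-329 lie to the right of the dashed line and those of miR-379 and miR-411 across it.

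Precision was set by the small number of reads left in K562/ADM. The authors omitted sequences seen once, yet 4 of the 18 names had exactly 1 read in a library, and why such names are in the table is not known. Only 2 of the 18 names had at least 50 reads in K562/ADM, 12 had fewer than 10 and 4 had 0, while 7 had at least 1000 reads in K562. With 0 taken as the floor of 3 reads, a name without reads could hold up to 4.35e-05% of the reads in K562/ADM. The 16 names above the floor entered the median through K562, where they are high, and their median log2 ratio of -5.65 (names at 0 set at the floor) is therefore given as a description only. Over the 691 such names of the whole table the median was -0.12.

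Since the hairpins from miR-379 to miR-329 all lie in introns of MEG8, the folds of neighbours were set against each other. Whether they share 1 intron was not determined. Reads of both arms were summed, and each ratio of folds has an exact conditional interval. The 7 pairs of neighbours within this run were compared, and as an eighth pair miR-329 with the distant miR-323b, which is no neighbour of it. A ratio of folds whose interval excluded 1 was found in 2 pairs, both within the run. The fold of miR-411, 67.6 (57.1 to 80.7), divided by that of miR-299, 100.3 (73.2 to 141), was 0.674 (0.459 to 0.971). MiR-380, 108.0-fold lower (69.8 to 177), and miR-1197, 18.8-fold lower (6.16 to 93.3), gave a ratio of folds of 5.75 (1.07 to 20.0). The fold of miR-1197 rests on 3 reads in K562/ADM. MiR-379 and miR-411, the hairpins with the most reads, did not differ beyond counting error, with a ratio of 0.996 (0.773 to 1.28). Nor did miR-758 and miR-329, with 0.920 (0.532 to 1.58). These intervals are not adjusted for the 8 pairs, and the noise between libraries is not in them.

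Summed by position, a grouping made after the values were seen, the first 4 hairpins (miR-379 to miR-380) had 318 reads in K562/ADM and 28841 in K562, 74.1-fold lower (66.3 to 83.0). The next 4 (miR-1197 to miR-329) had 67 reads in K562/ADM and 2398 in K562, 29.2-fold lower (22.9 to 37.8), of which miR-758 and miR-329 made up 62 and 2237 reads. The make-up of the reads shifted accordingly. MiR-758 took 9.02% of the members' reads in K562/ADM (6.36 to 12.3) and 3.89% in K562 (3.68 to 4.11), and miR-329 took 6.96% (4.64 to 9.96) and 3.26% (3.07 to 3.46). MiR-299 took 10.1% in K562/ADM (7.25 to 13.5) and 15.3% in K562 (14.9 to 15.7). MiR-411 took 35.1% in K562/ADM (30.3 to 40.03) and 36.0% in K562 (35.5 to 36.5), and miR-379 took 31.7% (27.1 to 36.6) and 32.4% (31.9 to 32.9), so that their order was clear in K562 only.

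The use of the arms differed between hairpins much more than between the libraries. The 5p arm held 100% of the reads of miR-379 in K562/ADM (97.0 to 100) and 99.6% in K562 (99.5 to 99.8). For miR-411 it held 96.3% in K562/ADM (91.6 to 98.8) and 96.9% in K562 (96.6 to 97.2). MiR-299 used the other arm, with 12.8% of its reads on the 5p side in K562/ADM (4.30 to 27.4) and 9.77% in K562 (8.95 to 10.6). MiR-758 had 2.86% on the 5p side in K562/ADM (0.0723 to 14.9) and 4.44% in K562 (3.35 to 5.75), if mir-758* is read as the 5p arm. In each of these hairpins the interval of K562/ADM held the value of K562. Of the 5 hairpins with 2 names that had reads in both libraries, 0 had a ratio of folds between the names whose interval excluded 1. Some of these intervals were very wide, with 0.179 (0.00226 to 15.1) for miR-323 and 1.58 (0.254 to 65.3) for miR-758. A difference in arm use could thus have been missed, and the pairs of miR-380 and miR-758 rest on names spelled mir.

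For miR-380 the share depended on what mir-380* counts. Read as the 5p arm, it gave 45.0% of the hairpin's reads in K562/ADM (23.1 to 68.5) and 47.5% in K562 (45.5 to 49.4). Without it, the 5p arm had 0 of 11 reads in K562/ADM and 1.28% in K562 (0.760 to 2.01). The remaining hairpins had at least 10 reads in K562 only. There the 5p arm held 15.2% of the reads of miR-323 (8.58 to 24.2), 5.45% of those of miR-323b (1.14 to 15.1) and 1.45% of those of miR-1197 (0.0367 to 7.81), the last being the 1 read of mir-1197*, if that name is read as the 5p arm.

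**Figure D3:**
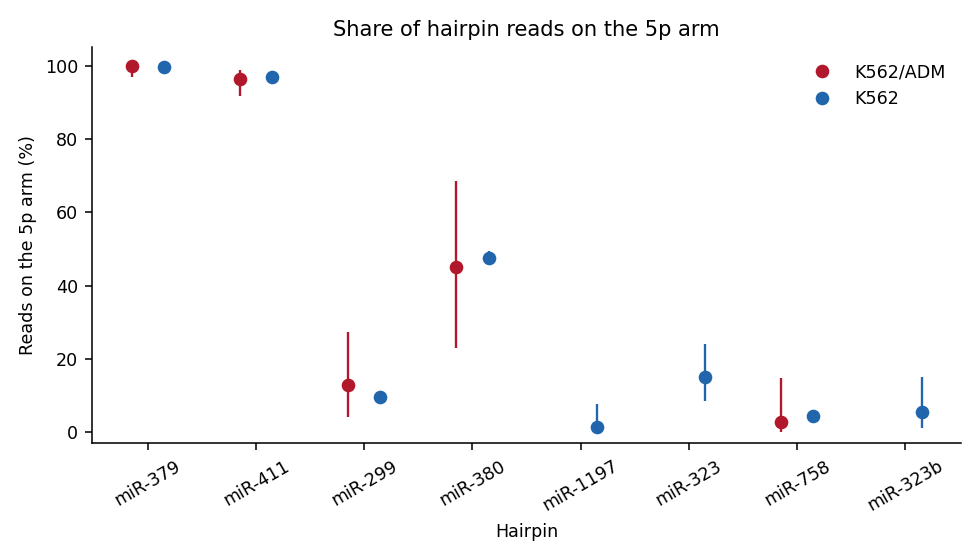
Share of each hairpin's reads on the 5p arm (y axis, percent) in K562/ADM (red) and K562 (blue), with exact 95% binomial intervals. Hairpins (x axis) are drawn in genomic order and only for libraries with at least 10 reads. MiR-379 and miR-411 lie near 100%, miR-299 and miR-758 near the bottom and miR-380 near the middle, in both libraries, names spelled mir being counted as the 5p arm.

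The seeds of miR-379, miR-380*, miR-323b-5p and miR-329 are found in further mature miRs of the RefSeq table. They were looked up in the processed table by their present names only. Under these, only miR-362-3p, with the seed ACACACC of miR-329, was found. Others could stand there under older names. The hairpin miR-410, whose 5p arm has the seed of miR-323b-5p, had 464 reads in K562, against 447 for the name miR-410. What the further reads count was not looked at. The values of miR-362-3p were looked at after those of miR-329 had been seen. MiR-362-3p had 115 reads in K562/ADM and 81 in K562, a ratio of 1.74 (1.30 to 2.34). MiR-329 thus made up 19% of the 142 reads with this seed in K562/ADM (12.9 to 26.4) and 92.6% of the 1101 in K562 (90.9 to 94.1). The summed reads of the seed were 6.33-fold lower in K562/ADM (5.31 to 7.59), against 30.8-fold for miR-329 alone.

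Names of the rest of 14q32 were lower as well. Of the 55 other names of the 14q32.31 cluster 45 were called lower, and of the 19 names of the 14q32.2 group upstream 18, against 67 of the 842 names outside these lists, or 7.96%. The summed reads of the rest of the cluster were 2150 in K562/ADM and 191911 in K562, 72.9-fold lower (69.9 to 76.1), close to the 65.9-fold of the members, with a ratio of folds of 0.904 (0.810 to 1.01). MiR-381 decides this value. Without it the rest had 898 reads in K562/ADM and 42072 in K562, 38.3-fold lower (35.8 to 40.9), and the ratio of folds was 1.72 (1.53 to 1.95). Median log2 ratios were -5.65 for the members, -4.59 for the 53 other names of the cluster above the floor and -4.64 for the 18 of the 14q32.2 group. The rest of the cluster had 23 names at 0 reads in K562/ADM, which the floor brings closer to 0.

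Of the reads of the whole cluster, the members held 15.3% in K562/ADM (13.9 to 16.7) and 14% in K562 (13.9 to 14.2). By hairpin, with at least 1000 reads in K562, the 6 members ranged from 28.4-fold lower for miR-758 to 108.0-fold for miR-380. The 8 others ranged from 25.7-fold for miR-134 to 97.7-fold for miR-381. Hairpins entered these ranges through their reads in K562, where they are high, so that the ranges are descriptions only.

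**Figure D4:**
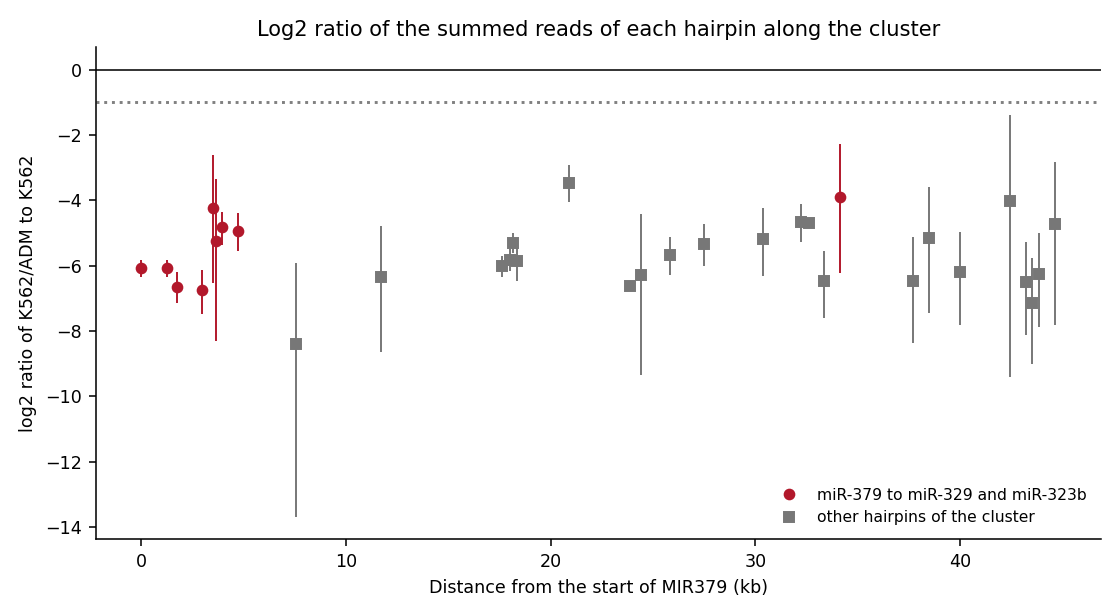
Log2 ratio of K562/ADM to K562 for the summed reads of each hairpin (y axis) against distance from the start of MIR379 in kb (x axis), with exact 95% counting intervals. Red circles are the hairpins described here, grey squares the others of the cluster, the dotted line marks a 2-fold fall and the solid line equality, and hairpins with 0 reads in K562/ADM are left out. All points lie below the dotted line, and miR-323b lies at 34.2 kb, far from the other members.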

How the data were processed

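Total RNA of K562/ADM and K562 was enriched for small RNA with PEG and sequenced as 36-mer reads. The authors grouped the reads, omitted sequences seen once and mapped the rest with Bowtie in miRanalyzer to miRBase 16. CASAVA 1.7.0, DESeq and hg18 are in the submitters' processing notes. The signal that the authors deposited equals each count over a size factor for its library. Its fold change, log2 and p-value columns hold the authors' comparison and were not used.

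Whole reads were recovered by dividing by the smallest value above 0, and 100% came out whole within 0.001. Names with 1 read are in the table although sequences seen once were omitted, and what the omission did to low counts was not tested. No count model was fitted, since 1 library per line leaves no residual degrees of freedom. Scaling used the median of ratios, and intervals for ratios came from the binomial split of the reads between libraries. All 18 names are given, and besides them the 5 names nearest in ratio with at least 100 reads in K562. Members and lists were chosen with earlier results of these data known. Arms of names without a suffix follow miRBase naming. Hairpins were placed on GRCh37 by exact match, except 4 outside the 9 stems, miR-381 among them, which were placed by their GENCODE genes. Introns and exons also came from GENCODE. The TMM and upper-quartile factors used R 4.3.3 with edgeR 4.0.16, figures matplotlib 3.10.9, and all else, with the main size factors, Python 3.11.15 with pandas 2.3.3, scipy 1.17.1 and numpy 2.4.6.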

Additional observations from a re-analysis of the deposited data

How the results depend on the processing

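Under total-count, TMM, upper-quartile and miR-425 scaling and under the median of ratios without 14q32, 16 of the 18 names were called lower, and the 16 log2 ratios with a value stayed below -1 under each. The share of all names called lower was 17.7%, 15.6%, 10.2%, 17.5% and 17.5%, in that order. Upper-quartile scaling raised every log2 ratio by 0.74, which gave a median of -4.90 and a ratio of the summed reads of -5.30, and over all names 95 lower and 223 higher calls against 146 and 104. Total counts moved every ratio by -0.14, miR-425 by -0.12 and the median of ratios without 14q32 by -0.10. The median was -5.39 without the names spelled mir, -5.23 over hairpin sums, -4.98 with 1 added to the scaled values and -5.91 without names at 0 reads in K562/ADM. Of the 9 hairpin sums 9 were called lower, but the share over the hairpin sums of all names was not computed, so that this count has no background beside it. By fold alone 18 names were called (2 of them only through a count of 0), against 275 or 29.4% of all names, and with the whole interval past 2-fold 15, against 11.1% of all names. Without miR-378 in the denominator the members held 0.0120% of the reads in K562/ADM and 0.825% in K562. Without the name mir-380*, the 5p share of miR-380 was 0% in K562/ADM and 1.28% in K562. No paired analysis was possible because there is 1 library of each line.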

Other observations

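Among the names outside the 9 stems with at least 100 reads in K562, the 5 whose log2 ratio lay nearest to that of the members' summed reads (-6.04) were miR-377, miR-376c, miR-485-5p, miR-410 and miR-376b, with log2 ratios from -6.19 to -5.85. All 5 come from the same cluster, but only 14q32 names could have been chosen, since no name outside the 14q32 lists had a log2 ratio under -3.80 (names at 0 reads set at the floor). MiR-376c had 83 reads in K562/ADM and 6583 in K562, and miR-485-5p had 3 and 222. With 2 libraries this likeness rests on a single ratio for each name.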
